A study of Mus musculus with 8 samples.

Results

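The proteasome genes described here are those whose symbols begin with Psma, Psmb, Psmc, Psmd, Psme or Psmg followed by a number, without the immunoproteasome genes Psmb8, Psmb9 and Psmb10. The rule used symbols alone and no measured value. It found 43 genes, measured by 92 probe sets, among 18193 genes and 34945 probe sets that carry 1 gene symbol. They comprise 8 alpha-ring and 8 beta-ring genes of the core, 6 ATPase and 14 non-ATPase genes of the cap (3 of these encode cap assembly chaperones), 3 activators and 4 core assembly chaperones. Psme2 has no probe set of its own, because its only one also carries the symbol Psme2b.

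The proteasome degrades proteins that carry ubiquitin chains. Its core particle is a barrel of outer alpha rings and inner beta rings, with the active sites on the beta subunits encoded by Psmb5 (chymotrypsin-like), Psmb6 (caspase-like) and Psmb7 (trypsin-like). The regulatory cap binds ubiquitin chains, unfolds the substrate with a ring of ATPases and feeds it into the core, while dedicated chaperones build the core and the base of the cap. Interferon exchanges the catalytic subunits for those encoded by Psmb8, Psmb9 and Psmb10 and raises the activator PA28, encoded by Psme1 and Psme2. When proteasome activity falls, the transcription factor NFE2L1 raises many of the subunit genes together.

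RNA was measured on 8 Affymetrix arrays of mouse cells. JoMa1 is a neural crest precursor line, known as a line that carries a conditional c-Myc transgene (background, not from the labels). Parental JoMa1 gave 3 arrays. JoMa1 cells with the label of a GFP transfection control gave 1. The other 4 came from lines, numbered 3 to 6, from separate tumours that MYCN-transfected JoMa1 had formed in immunocompromised mice. The labels call these both tumours and lines, and they were harvested from culture. They name neither the strain of those mice nor the promoter of either construct, and they do not say whether transfected cells were cloned or whether the parental arrays came from separate cultures. The p-values therefore measure the spread between these samples, which may be technical for the parental arrays.

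All values are log2 expression values, on which a difference of 1 is a 2-fold change. The median over all 45101 probe sets, with or without a symbol, lay between 6.26 and 6.30 on every array. The brightest Mycn probe set read 7.42 ± 0.12 (SD, n = 3) in parental arrays, 14.17 ± 0.08 (SD, n = 4) in tumour lines and 11.73 in the library labelled GFP-transfected. That last value goes against its label, so no direction from that library is read as an effect of GFP. Of 8 neural crest markers, Snai2, Pax3, Twist1, Sox9 and Sox10 had parental means above the arrays' medians (7.34 to 11.55), while Foxd3, Ngfr and Tfap2a had means below them (4.59, 5.40 and 5.66). Each gene was read from its brightest probe set, and a change was called at an adjusted p under 0.05 in limma (Benjamini-Hochberg over all 34945 probe sets).

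In the tumour lines, 6 of the 43 proteasome genes rose, 6 fell and 31 were not called. Among all genes 16.4% rose and 19.3% fell, and the share called in either direction was 27.9% of the proteasome genes beside 35.6% of all genes. The genes that rose were Psmb6, Psmc5, Psmd8, Psmd10, Psmd12 and Psmg4. Those that fell were Psma6, Psmb2, Psmc1, Psmd2, Psmd7 and Psmg2. Psmg2 was the only one of the 43 to pass a 2-fold change, a size that 1647 of 18193 genes passed. In RNA from whole cultures, fewer cells of a kind and less RNA per cell cannot be told apart.

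The median difference of the 43 genes, tumour lines minus parental, was -0.0050, beside 0.013 over all genes. It lay between -0.032 (without tumour line 3) and 0.022 (without tumour line 5) when single arrays were left out, and was 0.014 without tumour line 6, so its sign was not stable. The median size regardless of sign was 0.13, beside 0.18 over all genes. The 43 genes were bright: their brightest probe sets had a median level of 12.21, beside 6.82 over all probe sets. The part of signal level in the smaller size was not tested. For 42 of 43 genes the 95% interval of the difference lay within 0.75 on either side of 0, a 1.68-fold change. For the 31 genes not called, all intervals lay within 0.5, a 1.41-fold change, between -0.50 and 0.46. The counts changed when single arrays were left out. Shares of all genes called in those smaller fits were not counted. Without parental array 1, 4 genes were higher and 2 lower. Without parental array 2 these were 4 and 3, and without parental array 3 they were 3 and 4. The count of genes that rose was 4 without tumour line 3 or tumour line 4, and the count that fell was 4 without tumour line 5 or tumour line 6. With the GFP-labelled array counted as a parental one, 3 genes were higher and 6 lower.

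**Figure D1:**
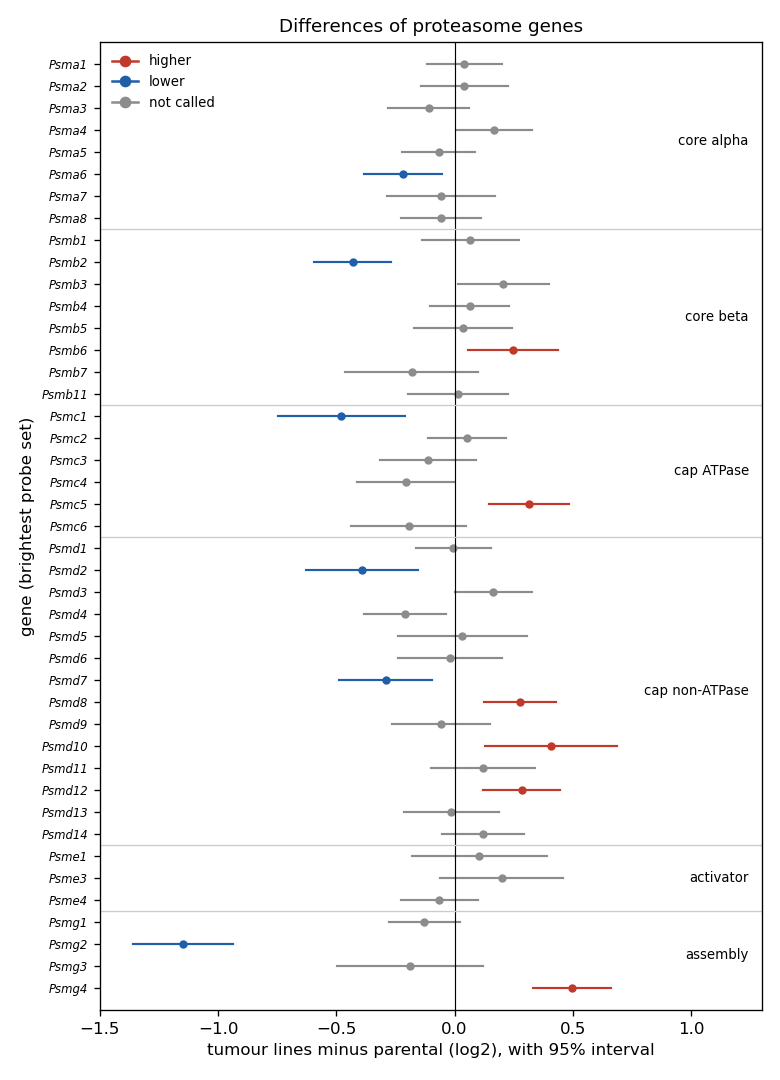
Difference of tumour lines minus parental for each of the 43 proteasome genes (horizontal axis, log2), with its 95% interval from limma as a line. Points are coloured by the call and ordered by class, and Psmg2 at -1.15 lies apart from the others, which reach from -0.48 to 0.50.

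Counted without a test, all 4 tumour lines lay above all 3 parental arrays for 9 genes and below them for 9. Among all genes these shares were 21.2% and 23.2%. Over all 92 proteasome probe sets, 11 rose and 11 fell in the tumour lines, where 15.5% and 18.4% of all probe sets did. Of the 43 genes, 24 had several probe sets and 19 had 1, and in 0 genes were probe sets called in opposite directions. A mean level under 6 was found for 20 of the 92 probe sets, and 18 of those were not the brightest of their gene.

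The spread among tumour lines is given without a test. The median SD over the 43 genes was 0.098 among tumour lines and 0.039 among parental arrays, where all genes had 0.13 and 0.080. The part of the higher signal level of the 43 genes in these smaller SDs was not tested. Measured from each gene's parental mean, the median over the 43 genes was 0.089 in tumour line 3, 0.052 in line 4, -0.087 in line 5 and -0.053 in line 6. The parental arrays gave 0.014, 0.017 and -0.033 on the same measure, and the library labelled GFP-transfected gave 0.040. The lines on either side of 0 were thus lines 3 and 4 above it and lines 5 and 6 below it. As a sign of RNA quality, the 3' probe set of Actb exceeded its 5' probe set by 0.63 to 0.64 in the parental cells, while the lines gave 0.52 to 0.61. The same measure for Gapdh ranged from 0.053 to 0.078 in parental cells and from 0.092 to 0.15 in the lines, and the part of either in the differences was not tested.

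**Figure D2:**
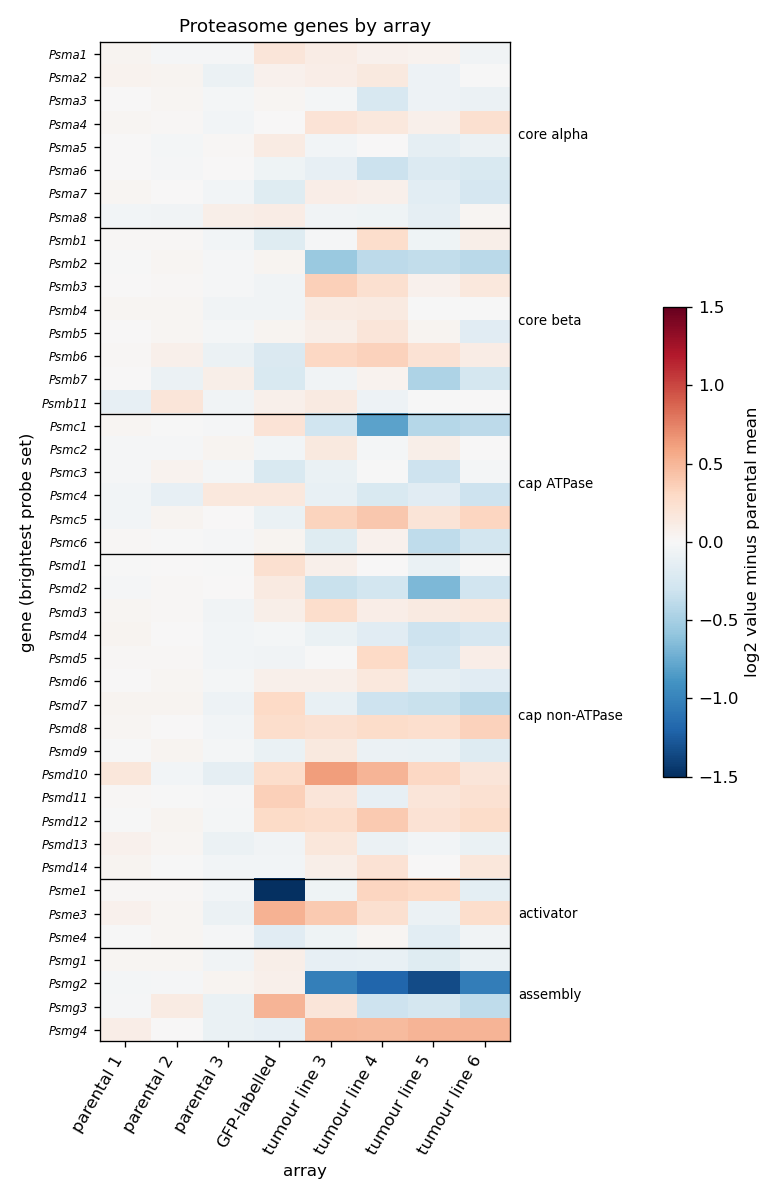
Log2 value minus the mean of the 3 parental arrays for the brightest probe set of each of the 43 proteasome genes (rows, grouped by class) on each of the 8 arrays (columns). The darkest cells are Psmg2 in all 4 tumour lines and Psme1 in the GFP-labelled array, while most other rows stay pale.

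In the alpha ring 0 of 8 genes rose and 1 fell in limma, with a median difference of -0.057 between tumour lines and parental arrays. At an unadjusted p under 0.05, 1 was higher (Psma4), and the share of all genes at that limit was not counted. Psma6, an alpha-ring subunit, read 13.57, 13.54 and 13.57 in parental arrays, 13.49 in the library labelled GFP-transfected and 13.44, 13.24, 13.36 and 13.33 in tumour lines 3 to 6. All tumour lines lay below all parental arrays, by a mean of -0.22 (SE 0.072, limma adjusted p = 0.0444). That call held in 8 of 16 alternative analyses and was lost without any 1 of the parental arrays or of tumour lines 4, 5 and 6. It was also lost when its probe sets were averaged and when _x_at and _s_at probe sets were left out. A second bright probe set of Psma6 differed by -0.19 without being called (adjusted p = 0.132). Psma4 differed by 0.17 (adjusted p = 0.108) and Psma3 by -0.11 (adjusted p = 0.322). Psma8, the alpha subunit of testis, was dim on every array, from 4.55 to 4.80.

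In the beta ring 1 gene rose and 1 fell, with a median of 0.050 over 8 genes. The 3 genes with active sites did not move as a group. Psmb5 read 12.81, 12.83 and 12.77 in parental arrays and 12.89, 12.98, 12.85 and 12.63 in tumour lines. Its groups overlapped, and the difference was 0.035 (95% interval -0.17 to 0.24, limma adjusted p = 0.817). Psmb6 read 12.61, 12.67 and 12.51 in parental arrays, 12.38 in the library labelled GFP-transfected and 12.91, 12.95, 12.81 and 12.71 in tumour lines. Every tumour line was above every other array for this gene, by 0.25 over the parental mean (SE 0.083, adjusted p = 0.0488). The call of Psmb6 held in 8 of 16 alternatives and was lost without any 1 of the parental arrays or of tumour lines 3, 4 and 5. It was also lost when arrays were centred on the median and when _x_at and _s_at probe sets were left out of the fit. Psmb7 read 11.85, 11.75 and 11.93 in parental arrays and 11.79, 11.90, 11.39 and 11.58 in tumour lines. Lines 3 and 4 lay within the parental range and lines 5 and 6 lay below them, with a difference of -0.18 that was not called (95% interval -0.46 to 0.10, adjusted p = 0.317).

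Psmb2, a beta-ring subunit without an active site, fell. Its values were 12.42, 12.44 and 12.40 in parental arrays, 12.46 in the library labelled GFP-transfected and 11.87, 12.03, 12.05 and 12.01 in tumour lines. The 4 tumour lines lay below all other arrays, 1.35-fold under the parental mean (-0.43, SE 0.072, limma adjusted p = 0.00178), and this call held in all 16 alternatives. Psmb3, also without an active site, differed by 0.21 (adjusted p = 0.0953) with all tumour lines above all parental arrays, and by 0.25 without tumour line 5, where it was called. Psmb11, the beta subunit of the thymus, was dim on every array, from 5.34 to 5.64.

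Among the 6 ATPases, which form the ring that unfolds substrates, Psmc5 rose, Psmc1 fell and 4 were not called. Psmc1 read 11.61, 11.58 and 11.56 in parental arrays, 11.79 in the library labelled GFP-transfected and 11.29, 10.78, 11.15 and 11.20 in tumour lines. All tumour lines were lower, tumour line 4 most of all, with a mean difference of -0.48 (SE 0.12, limma adjusted p = 0.0129). The call of Psmc1 held in all but 1 of 16 alternatives (it was lost without parental array 1), and its other probe set was dim, at 3.80 on average in tumour lines, and not called. Psmc5 read 11.82, 11.90 and 11.87 in parental arrays, 11.76 in the library labelled GFP-transfected and 12.20, 12.27, 12.06 and 12.18 in tumour lines. The tumour lines lay above all other arrays, by 0.31 over the parental mean (SE 0.074, adjusted p = 0.0106), in all 16 alternatives. Psmc4 differed by -0.21 (adjusted p = 0.117), with parental values of 12.64, 12.55 and 12.84 that spread more than those of the other ATPases.

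Among the 14 non-ATPase genes of the cap 3 rose and 2 fell, with a median of 0.014. Psmd2, the large scaffold of the base, read 12.21, 12.26 and 12.24 in parental arrays, 12.37 in the library labelled GFP-transfected and 11.90, 11.96, 11.57 and 11.95 in tumour lines. All tumour lines lay below, and line 5 lay apart from the other 3. The difference was -0.39 (SE 0.10, limma adjusted p = 0.0188), and -0.30 without tumour line 5, where it was still called. The call of Psmd2 held in 12 of 16 alternatives and was lost without any 1 of the 3 parental arrays (adjusted p = 0.0563, 0.0632 and 0.061) and when its probe sets were averaged. Psmd7, a lid subunit, read 11.91, 11.91 and 11.80 in parental arrays, 12.17 in the library labelled GFP-transfected and 11.76, 11.56, 11.54 and 11.47 in tumour lines. It fell by 0.29 (SE 0.087, adjusted p = 0.0297), with tumour line 3 only just below the lowest parental array, and its call held in 11 of 16 alternatives, not without parental array 1 or 2 or tumour line 4, 5 or 6. A second Psmd7 probe set fell as well, by 0.48 (adjusted p = 0.0226).

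The lid subunits Psmd8 and Psmd12 also rose, and they were singled out after their values were seen. Psmd8 read 11.90, 11.89 and 11.83 in parental arrays and 12.10, 12.15, 12.13 and 12.22 in tumour lines, with 12.14 in the library labelled GFP-transfected. Psmd12 read 12.21, 12.25 and 12.18 in parental arrays and 12.48, 12.60, 12.43 and 12.48 in tumour lines, with 12.50 in that library. For both genes the GFP-labelled value thus lay among those of the tumour lines and above the parental arrays. Tumour lines minus parental was 0.28 for each (SE 0.067, limma adjusted p = 0.012 for Psmd8 and SE 0.071, adjusted p = 0.0139 for Psmd12). Their calls held in 15 and 13 of 16 alternatives. Both were lost when the GFP-labelled array was pooled with the parental arrays, and that of Psmd12 also without parental array 1 or 3.

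**Figure D3:**
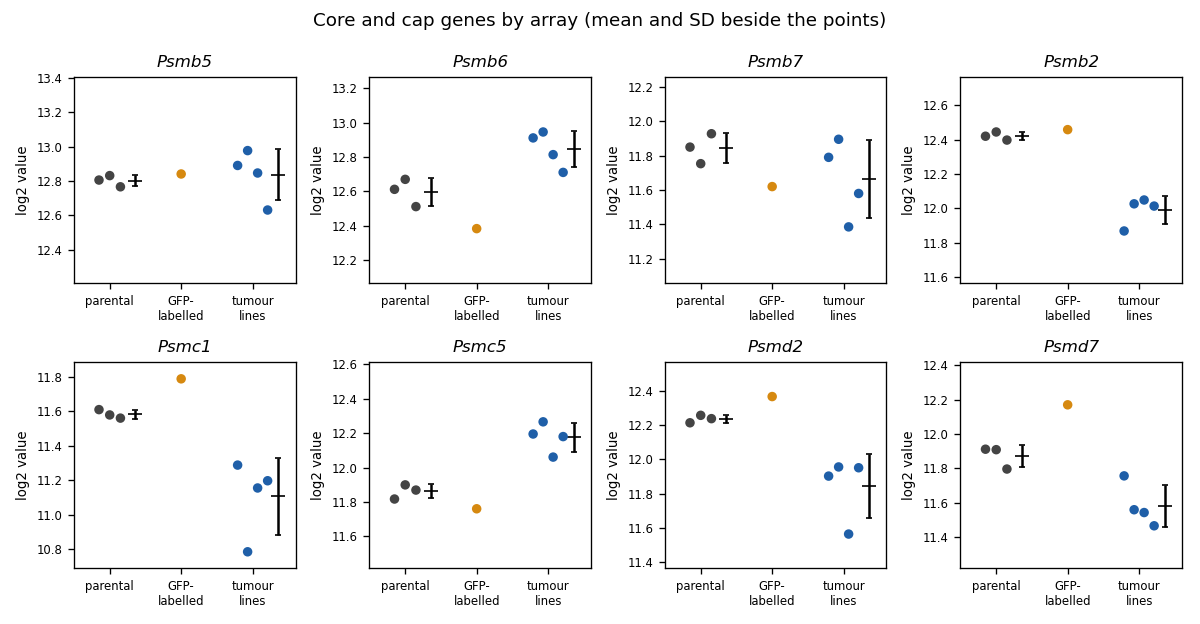
Log2 values of 8 core and cap genes on each array: 3 parental arrays, 1 GFP-labelled array and 4 tumour lines, with the group mean and SD beside the points. Tumour lines lie above the parental arrays for Psmb6 and Psmc5, below them for Psmb2, Psmc1, Psmd2 and Psmd7, and overlap them for Psmb5 and Psmb7, and each panel spans its own range.

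Short stretches of promoter are shown for 4 core and cap genes because a motif of the NFE2L1 pathway lies there. RefSeq promoters (mouse build GRCm38.p6, 250 bases before to 50 after the start) were held for 35 of the 43 genes and were searched on both strands. None was held for Psma8, Psmb1, Psmb2, Psmb7, Psmc3, Psmd3, Psmd7 or Psmg2, of which Psmb2, Psmd7 and Psmg2 fell in the tumour lines. The core antioxidant response motif TGACNNNGC, which NFE2L1 and NFE2L2 bind with small MAF proteins, was found in 6 of 35 (17.1%), beside 14% of all 27025 genes with promoters. Those 6 were Psmb5, Psmb6, Psmc6, Psmd9, Psmd12 and Psme4. Psmb6 and Psmd12 rose in the tumour lines and the other 4 were not called. The E-box CACGTG, a site of MYC and MAX, was found in 3 of 35 (8.57%, beside 8.09%), and CCAAT in 13 of 35 (37.1%, beside 41.1%). Psma4, Psmd9 and Psme3 held the E-box, and none of these 3 was called in limma. In the sites below, read along the gene's strand, capitals mark the match to the antioxidant response motif. They lie at chr14:54618023-54618052 on the minus strand, chr11:70525338-70525367, chr14:45329587-45329616 and chr11:107479278-107479307, the last 3 on the plus strand.
Psmb5: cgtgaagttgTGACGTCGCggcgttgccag
Psmb6: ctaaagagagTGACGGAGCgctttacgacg
Psmc6: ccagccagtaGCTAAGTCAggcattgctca
Psmd12: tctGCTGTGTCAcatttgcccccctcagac
Counted in bases from the annotated start, the match begins at -47 for Psmb5 and -9 for Psmb6, and at -227 for Psmc6 and -247 for Psmd12, where the motif stands on the opposite strand. Nfe2l1 itself differed by 0.22 between tumour lines and parental arrays (adjusted p = 0.0617) and Nfe2l2 by -0.18 (adjusted p = 0.194), neither called. A second, dim probe set of Nfe2l2 rose by 0.74 (adjusted p = 0.000336).

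The assembly chaperones held the largest fall and the largest rise among the 43 genes in the tumour lines. PSMG2 pairs with PSMG1, and PSMG3 with PSMG4, and both pairs guide the building of the alpha ring. Psmg2 read 11.86, 11.88 and 11.94 in parental arrays, 11.97 in the library labelled GFP-transfected and 10.87, 10.71, 10.55 and 10.85 in tumour lines. All 4 tumour lines lay well below every other array, 2.22-fold under the parental mean (-1.15, SE 0.093, 95% interval -1.36 to -0.94, limma adjusted p = 3.18e-05). A second bright probe set of Psmg2 fell by 0.74 (adjusted p = 0.000418), and another, dim one differed by -0.23 and was not called (adjusted p = 0.104). Its partner Psmg1 read 11.63, 11.63 and 11.54 in parental arrays, 11.70 in the library labelled GFP-transfected and 11.48, 11.49, 11.43 and 11.50 in tumour lines. Its tumour lines lay below its parental arrays, but the difference of -0.13 was not called (adjusted p = 0.182).

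Psmg4 read 10.17, 10.09 and 9.97 in parental arrays, 9.95 in the library labelled GFP-transfected and 10.57, 10.56, 10.59 and 10.59 in tumour lines. The 4 tumour lines lay close together and above all other arrays, 1.41-fold over the parental mean (0.50, SE 0.072, limma adjusted p = 0.00081). Both the fall of Psmg2 and the rise of Psmg4 were called in all 16 alternatives, and a dim second probe set of Psmg4 rose by 0.28 (adjusted p = 0.0369). Psmg3 read 11.25, 11.39 and 11.17 in parental arrays, 11.78 in the library labelled GFP-transfected and 11.45, 10.96, 11.01 and 10.89 in tumour lines. Line 3 lay above all parental arrays and the other 3 lines below them, the largest SD of any proteasome gene among tumour lines (0.25), and the difference of -0.19 was not called (adjusted p = 0.34). Without tumour line 3 the difference of Psmg3 was -0.31 and was called (adjusted p = 0.026).

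Of the 3 chaperones that build the base of the cap, Psmd10 (gankyrin) rose and the others were not called. Psmd10 read 9.91, 9.70 and 9.61 in parental arrays, 10.003 in the library labelled GFP-transfected and 10.36, 10.25, 10.05 and 9.92 in tumour lines. Its groups only just separated, with a difference of 0.41 (SE 0.12, limma adjusted p = 0.031) that was called in 11 of 16 alternatives. The call of Psmd10 was lost without parental array 2 or 3 or tumour line 3 or 4. It was also lost with the GFP-labelled array pooled with the parental arrays. Psmd5 read 11.05, 11.35, 10.81 and 11.16 in tumour lines, on both sides of its parental range of 11.01 to 11.08 (difference 0.033, adjusted p = 0.872). Psmd9 differed by -0.058 (adjusted p = 0.691).

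**Figure D4:**
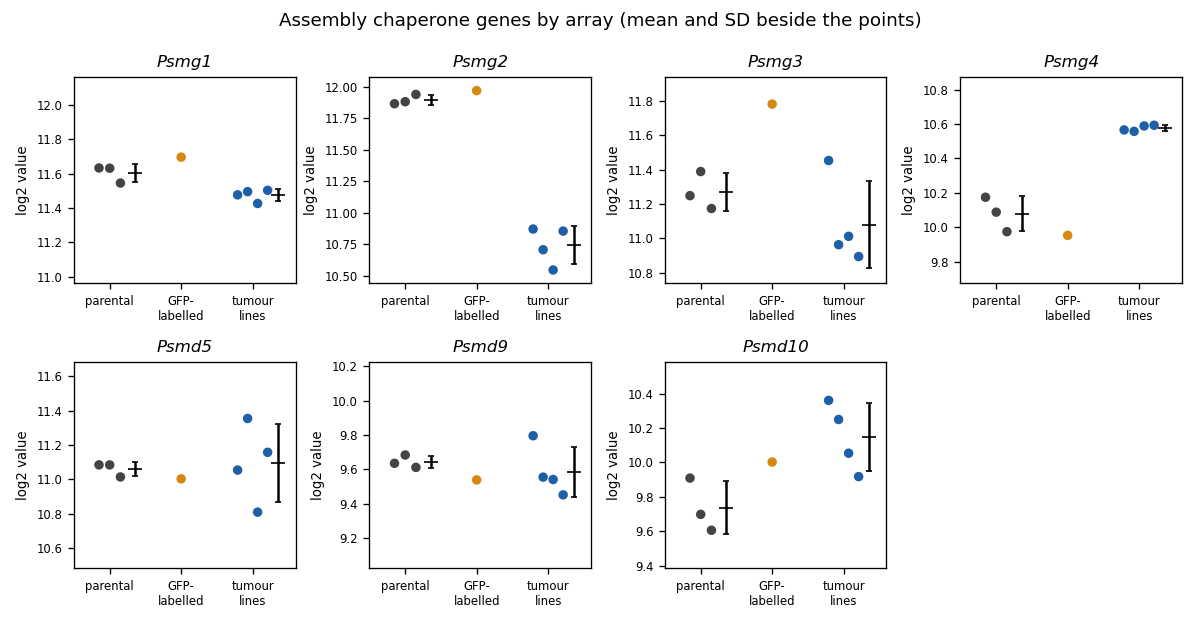
Log2 values of the core assembly chaperone genes Psmg1 to Psmg4 and the cap assembly chaperone genes Psmd5, Psmd9 and Psmd10 on each array, with group mean and SD beside the points. Psmg2 is lower in all 4 tumour lines (10.55 to 10.87) than in the parental arrays (11.86 to 11.94), and Psmg4 is higher (10.56 to 10.59 against 9.97 to 10.17), and each panel spans its own range.

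Genes next to Psmg2 and Psmg4 on the chromosome, in RefSeq order, did not share one direction. Beside Psmg2 on chromosome 18, Spire1 fell by 0.65 (limma adjusted p = 0.00647) and Seh1l by 0.31 (adjusted p = 0.0182) in tumour lines. Between them Cep76 differed by -0.19 (adjusted p = 0.211) and Ptpn2 rose by 0.25 (adjusted p = 0.0136). Around Psmg4 on chromosome 13, the tubulin gene Tubb2a rose by 3.12 (adjusted p = 0.000302) and Pxdc1 by 1.44 (adjusted p = 3.8e-06), while Slc22a23 fell by 0.96 (adjusted p = 0.0181). The 43 genes lie on 16 chromosomes, with 8 of them on chromosome 11.

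None of the 3 activators was called between tumour lines and parental arrays in limma, nor did any reach an unadjusted p under 0.05. Psme1, the alpha subunit of PA28, read 12.37, 12.37 and 12.31 in parental arrays and 12.29, 12.67, 12.65 and 12.20 in tumour lines. Lines 4 and 5 lay above the parental arrays and lines 3 and 6 below them, and the difference was 0.10 (95% interval -0.18 to 0.39, limma adjusted p = 0.588). The probe set shared by Psme2, the beta subunit, and Psme2b read 12.77, 12.77 and 12.63 in parental arrays and 12.76, 13.07, 12.76 and 12.60 in tumour lines, and it was not tested because it carries several symbols. Psme3, PA28 gamma of the nucleus, differed by 0.20 (adjusted p = 0.23) and by 0.29 without tumour line 5, where it was called (adjusted p = 0.0297), and a dimmer probe set of it rose by 0.34 (adjusted p = 0.0358). Psme4, which encodes the activator PA200, differed by -0.065 (adjusted p = 0.552).

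The immunoproteasome genes, which the rule leaves out, were all called higher in the tumour lines, Psmb10 by far less than Psmb8 and Psmb9. Psmb8 read 7.45, 7.46 and 7.70 in parental arrays and 11.93, 12.52, 12.69 and 11.80 in tumour lines, a rise of 4.70 (SE 0.21, limma adjusted p = 1.16e-06). Psmb9 rose by 2.66 (SE 0.24, adjusted p = 5.42e-05) and Psmb10 by 0.43 (SE 0.13, adjusted p = 0.0277). Line 5 was highest for all 3 of them. The genes of the subunits they replace, Psmb5, Psmb6 and Psmb7, gave the differences of 0.035, 0.25 and -0.18 described above.

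The library labelled GFP-transfected is a single array, assumed in the fit to vary like the other groups. Against the parental arrays 0 proteasome genes were called higher and 1 lower, where 7.18% and 8.32% of all genes were. At an unadjusted p under 0.05, 5 genes were higher in limma (Psmd8, Psmd11, Psmd12, Psme3 and Psmg3) and 1 was lower. The share of all genes at that unadjusted limit was not counted, so these counts are not read as a lean. The gene called lower was Psme1, at 10.85 in that library against 12.31 to 12.37 in the parental arrays, 2.81-fold lower (-1.49, SE 0.19, adjusted p = 0.00132). The probe set shared by Psme2 and Psme2b was lower in the same array, at 11.72 against 12.63 to 12.77 in the parental arrays. Psmb8 (5.85), Psmb9 (5.66) and Psmb10 (9.59) also had their lowest value of all 8 arrays there, with differences from the parental mean of -1.69, -1.86 and -1.20, all called (adjusted p = 0.00926, 0.00989 and 0.00395). A second, dim probe set of Psmb8 was not lower in that array, at 4.68 against 4.15 to 4.54 in the parental arrays, and was not called.

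Counted over all 92 probe sets, 6 of the proteasome genes' dimmer probe sets were called higher in the GFP-labelled array and 1 probe set lower. The shares of all probe sets were 7.59% and 6.76%. The 6 belong to Psma1 (3 of them), Psma5, Psma6 and Psmg3, while the brightest probe set of each of these genes was not called. The fibroblast markers fell in that library as well: 4 of 5 were called lower, with their mean level at 6.03 beside 8.64 to 8.72 over the parental arrays and 9.53 to 10.31 over the lines. The endothelial marker Cdh5 was higher (6.71 against a parental mean of 4.75), while Pecam1 and Tek were dim (4.70 and 4.18). Kdr, also an endothelial marker, was brighter and differed by -0.31 from its parental mean. On the same measure the macrophage marker Cd68 differed by 0.75, and the neural crest markers Pax3 and Snai2 by -1.21 and -0.82. The remaining neural crest, macrophage and leukocyte, and red cell markers differed by -0.50 (Sox9) to 0.16 (Ngfr). The part of these in the proteasome differences was not tested.

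A motif of interferon response lies in the windows of Psme1 and Psmg4, which are shown for the contrast in their values. The interferon-stimulated response element, searched as a pair of GAAA blocks with any 2 bases between them on both strands, was found in 5 of 35 genes (14.3%), beside 3.99% of all genes with promoters, namely Psmb3, Psmd4, Psmd9, Psme1 and Psmg4. In the tumour lines Psmg4 rose and the other 4 were not called, and in the GFP-labelled array Psme1 was lower and the other 4 were not called. Capitals mark the match, at chr14:55578493-55578522 for Psme1 and chr13:34162969-34162998 for Psmg4, both on the plus strand.
Psme1: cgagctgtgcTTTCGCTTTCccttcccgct
Psmg4: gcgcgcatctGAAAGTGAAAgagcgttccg
The matches begin 10 and 16 bases after the annotated start, and in Psme1 the motif stands on the opposite strand. Of the neighbours of Psme1 on chromosome 14, Irf9 (an interferon factor gene, 3 genes away), Dcaf11 and Emc9 rose in the tumour lines. Their differences were 2.06, 0.70 and 0.68 (limma adjusted p = 0.000124, 0.000491 and 0.00186). Pck2 fell there (-1.11, adjusted p = 3e-05), while Fitm1, Rnf31 and Psme1 itself were not called. In the GFP-labelled array Emc9, the direct neighbour of Psme1, was lower by -0.97 (adjusted p = 0.00684) and Pck2 by -1.40 (adjusted p = 0.000297). Fitm1, the neighbour on the other side, differed by -0.10 (adjusted p = 0.781). Irf9, Rnf31 and Dcaf11 differed by -0.81, -0.38 and -0.32 there, and none of them was called.

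**Figure D5:**
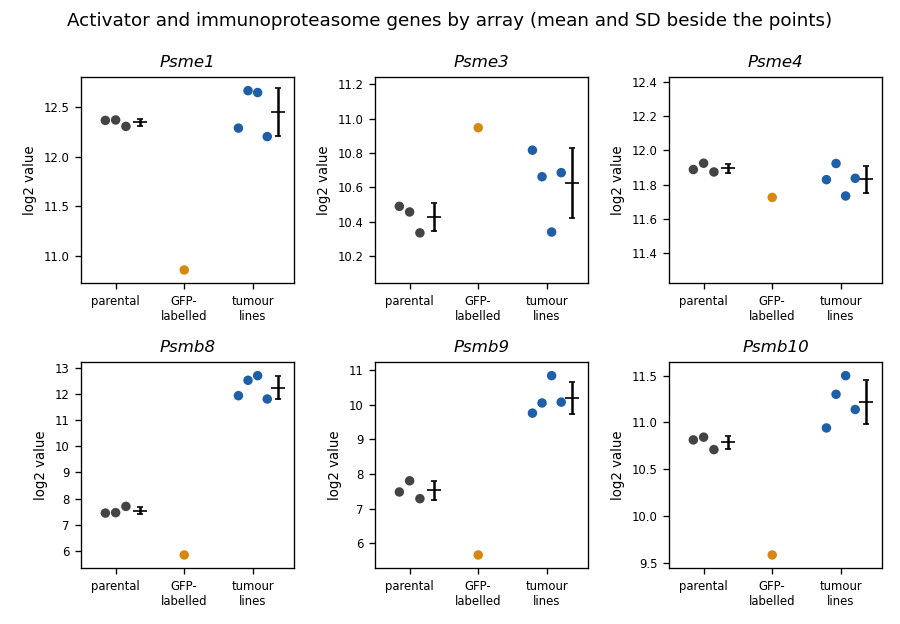
Log2 values of the activator genes Psme1, Psme3 and Psme4 and, for comparison, the immunoproteasome genes Psmb8, Psmb9 and Psmb10 on each array, with group mean and SD beside the points. The GFP-labelled array is lowest for Psme1, Psmb8, Psmb9 and Psmb10, and the tumour lines are far above the parental arrays for Psmb8 and Psmb9 but not for Psme1, and each panel spans its own range.

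Tumour lines were also set against the GFP-labelled array, a comparison that shares arrays with both others. Here 4 proteasome genes were higher and 6 lower, where 13.8% and 16.2% of all genes were. Psme1 was higher by 1.60 (SE 0.18, limma adjusted p = 0.000294), Psmg4 by 0.62, Psmb6 by 0.46 and Psmc5 by 0.42. Psmg2 was lower by -1.22, Psmg3 by -0.70, Psmc1 by -0.68, Psmd7 by -0.59, Psmd2 by -0.52 and Psmb2 by -0.47. When every array was centred on its median, the split was 2 higher and 9 lower, with Psmb6 and Psmc5 no longer called. Of the 10 genes called, Psme1 and Psmg3 were not called between tumour lines and parental arrays. For Psme1 the GFP-labelled array differed from the parental mean by -1.49, as given above, and for Psmg3 by 0.51, which was not called (adjusted p = 0.151) but was called in the fit without tumour line 3.

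Of 24 other genes of the ubiquitin-proteasome pathway, 5 rose and 9 fell in the tumour lines, with a median of -0.20, where 16.4% of all genes rose and 19.3% fell with a median of 0.013. Of the 5 that rose, 3 were Psmb8, Psmb9 and Psmb10. Ecpas, a scaffold protein that holds the core and cap together, read 11.32, 11.36 and 11.28 in parental arrays, 11.62 in the library labelled GFP-transfected and 10.13, 10.31, 10.23 and 10.17 in tumour lines. It was lower in all tumour lines, by -1.11 (SE 0.073, limma adjusted p = 9.13e-06), and its other 3 probe sets fell too. Usp14 and Uchl5, which encode deubiquitinases that dock on the cap, fell by 0.69 (SE 0.075, adjusted p = 0.000163) and 0.63 (SE 0.065, adjusted p = 0.000122). All 4 probe sets of Usp14 fell, while the dimmer one of Uchl5 was not called. Psmf1, an inhibitor of the core, fell by 0.44 (adjusted p = 0.0031), but its other 3 probe sets were not called. Pomp, the chaperone that matures the core, differed by 0.16 (adjusted p = 0.117).

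In the GFP-labelled array 1 gene of this list was higher, Uchl5 at 12.33 against a parental mean of 11.75 (adjusted p = 0.00538 in limma). The 3 that were lower were Psmb8, Psmb9 and Psmb10, and among all genes 7.18% were higher and 8.32% lower. Of 7 macrophage and leukocyte markers, Cd68 and Lyz2 rose in the tumour lines (by 0.80 and 0.49). Ptprc, Itgam and Adgre1 stayed dim there (4.08, 4.13 and 4.58). Csf1r and Cd3e lay above the arrays' medians, at 7.11 and 7.04 beside parental means of 7.05 and 6.85, and neither was called. The mean level of these 7 ranged from 5.38 to 5.52 over the parental arrays and from 5.64 to 5.70 over the tumour lines. The 4 endothelial and 2 red cell markers had limma adjusted p-values between 0.0694 and 0.988 there. Of 5 fibroblast markers 3 rose there (Col1a1, Col1a2 and Pdgfra), and the part of any of these in the proteasome differences was not tested.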

How the data were processed

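The authors deposited log2 values, 1 for each probe set on each array. Per the submitters' processing notes RMA and Partek were used, with no version given. RMA corrects background, equalises the arrays' distributions and combines probes. That the scale is log2 follows from the range of the values. A genome build for the arrays is not given in sources used here. RMA understates differences of dim genes and removes changes of total RNA.

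Of 45101 probe sets, 64 controls, 932 with several symbols and 9160 with none were left out. RefSeq's gene table (GRCm38.p6) held the gene IDs of 34741 probe sets, and 0 symbols changed. The 34945 probe sets with 1 symbol were fitted with limma 3.58.1 (R 4.3.3, lmFit and eBayes on the 8 arrays with a coefficient for each group, two-sided, Benjamini-Hochberg). A gene's call is that of its brightest probe set by mean over the arrays. The fit was tested on simulated data. RefSeq's tables served for names, gene order and promoters, and the chromosome sites printed come from its promoter table.

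Members and gene lists were chosen with earlier results of these data known. Genes were named by a rule: the catalytic, activator and chaperone genes, the 3 largest differences per class, the 5 largest tumour-line SDs, the 3 largest differences against the GFP-labelled array, and the 6 largest called differences of the pathway list with Nfe2l1, Nfe2l2, Pomp and Psmb8 to Psmb10. Promoter sites were chosen after the motif search. The 16 alternatives were 1 probe set per gene, averaging the probe sets of each gene, no _x_at or _s_at probe sets, probe sets above the median level alone, median centring, a repeated quantile normalization, a trended robust prior, array weights, pooling the GFP-labelled array with the parental arrays, and leaving out each parental array and tumour line. The number of arrays limits the precision.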

Additional observations from a re-analysis of the deposited data

Results flagged for a closer look

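Psmd2, the scaffold gene of the cap's base, had 1 tumour line far from the others. Line 5 was the lowest at a log2 value of 11.57, while the other 3 lines lay between 11.90 and 11.96, so that its gap made up 0.86 of the group's range. Such a gap arises by chance in about 1 in 20 groups of 4, and 23 genes were examined.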

How the results depend on the processing

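For tumour lines against parental arrays, 6 were higher, 3 with the GFP-labelled array pooled with the parental arrays, and 3 to 7 when single arrays were left out. The count lower was 6, and 2 to 8 when single arrays were left out. Shares of all genes called in the alternatives were not counted. Against the parental arrays, 0 were higher in the GFP-labelled array, 1 with array weights (Psme3), 2 when the probe sets of each gene were averaged (Psma1 and Psmg3), and 0 to 1 when single arrays were left out. For tumour lines against the GFP-labelled array, 4 were higher, and 2 when arrays were centred. Of the 12 genes called between tumour lines and parental arrays, 4 (Psmb2, Psmc5, Psmg2 and Psmg4) were called in all 16 alternatives and 2 more in all but 1. The direction turned in 0 of the 12, and 7 uncalled genes were called in 1 or more alternatives. Of 31 uncalled genes, 11 changed sign in 1 or more alternatives, with values between -0.19 and 0.22. Among the named genes these were Psmb5 (-0.012) and Psmd5 (-0.054) without tumour line 4, where leaving out single arrays gave values up to 0.10 and 0.13, and Psme4 (0.0077) without probe sets of several transcripts. The cause of these changes was not tested. No paired analysis was possible because the groups share fewer than 2 replicate numbers. RMA compresses weak signals, which limits Psma8, Psmb11 and the dimmer probe sets.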
